A study of Mus musculus with 3 samples.

Results

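Oxidative phosphorylation is carried out by 5 protein complexes of the inner mitochondrial membrane, and its subunits are encoded partly in the mitochondrial genome and partly in the nucleus. Of the 17946 genes in the deposited table, 15497 were protein-coding, and 101 of these were taken as oxidative phosphorylation genes by their symbols, which begin with mt-, Nduf, Sdha to Sdhd, Uqcr, Cox4 to Cox8 or Atp5. The choice used gene names only and no measured value. It gave 12 mitochondrially encoded genes and 89 nuclear genes. Of the nuclear genes, 81 were named as subunits and 8 as assembly factors (Ndufaf and Sdhaf symbols). The nuclear subunit genes were 38 of complex I, 4 of complex II, 8 of complex III, 14 of complex IV and 17 of complex V. The complexes were assigned by symbol, so Ndufa4, which belongs to complex IV, was counted in complex I. Ndufa4l2, Cox7a2l, Atp5s and Atp5sl match by symbol without being structural subunits of the complex they are named for, and were kept. Cox4i2, Cox6a2, Cox7a1, Cox8b, Ndufaf6 and mt-Nd4l were not analysed here.

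The RNA came from round spermatids, the haploid cells that follow meiosis, which were sorted by flow cytometry after Hoechst staining from testes of 28-day-old male C57BL/6 mice. The 3 libraries were 1 of wild-type mice, 1 of MiwiΔIns mice and 1 of MiwiR371W mice. The last 2 genotypes carry alleles of Miwi (Piwil1), which encodes a protein that binds piRNAs in male germ cells. The labels do not describe the alleles or their zygosity, and they do not say how many animals went into a library. Where 3 values follow each other without labels, they stand for wild-type, MiwiΔIns and MiwiR371W in this order. The question posed by the series is how mRNAs and transposons compare between these genotypes. With 1 library per genotype no test was possible, so each difference below describes these libraries and has no replicate check. Piwil1 itself had a value of 20.3, 23.2 and 23.5, which does not check the genotypes because a gene-level value does not show the allele. The depth behind a unit of value in MiwiΔIns and MiwiR371W was 1.09 and 0.81 times that of wild-type. The 10 round spermatid markers were abundant in every library, with summed values of 16329, 22599 and 18275. By their log2 ratios (defined below) 8 of 10 were positive in MiwiΔIns against wild-type (median 0.29), 4 of 10 in MiwiR371W against wild-type (−0.155) and 1 of 10 in MiwiR371W against MiwiΔIns (−0.39). The 7 peritubular and endothelial markers summed to 9.3, 9.4 and 30.3, all 7 higher in MiwiR371W than in either other library, and their part in the results below was not tested. The largest of them in MiwiR371W, Igfbp7, was at 2.08, 1.90 and 10.99. Summed markers of meiotic prophase spermatocytes were 800 to 901, of spermatogonia 22.9 to 26.2 and of Sertoli cells 22.1 to 31.4. Those of Leydig cells were 32.9 to 44.5 and of erythroid cells 0.2 to 0.4. Macrophage markers summed to 6.6, 10.1 and 13.4. All 4 measured macrophage markers were higher in both mutants than in wild-type, 1 of them reached a value of 5, and their part below was not tested. In a sorted population, fewer cells of a type and less RNA per cell cannot be told apart.

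Complexes I and II pass electrons from NADH and succinate to ubiquinone, complex III passes them to cytochrome c and complex IV to oxygen. Complexes I, III and IV pump protons, and complex V, the ATP synthase, uses the gradient to make ATP. The mitochondrial genome encodes core subunits of complexes I, III, IV and V, while complex II is wholly nuclear. Its mRNAs are cut from long transcripts of each strand, the heavy-strand transcript carrying all of them but mt-Nd6. Male germ cells are known for replacing some somatic subunits by testis forms. Cox6b2, Cox7b2 and Cox8c are the testis forms of complex IV subunits whose somatic forms are Cox6b1, Cox7b and Cox8a.

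The 250 bases before the start of 4 of these isoform genes are shown because the levels below turn on these pairs. They come from RefSeq on build GRCm38.p6, at chr7:4753095-4753344 (minus strand) for Cox6b2, chr7:30626115-30626364 (minus) for Cox6b1, chr5:71548206-71548455 (minus) for Cox7b2 and chrX:106015450-106015699 (plus) for Cox7b. Each runs 5′ to 3′ in the direction of transcription, and capitals mark matches on either strand to CCGGAAG (an ETS core), GCATGCGC (an NRF-1 core), CCAAT or TGACG (a core of the cyclic AMP response element).
Cox6b2: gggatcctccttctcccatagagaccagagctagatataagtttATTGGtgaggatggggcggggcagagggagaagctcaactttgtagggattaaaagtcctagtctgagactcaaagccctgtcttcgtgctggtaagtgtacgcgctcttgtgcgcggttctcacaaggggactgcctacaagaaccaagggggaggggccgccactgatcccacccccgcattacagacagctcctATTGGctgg
Cox6b1: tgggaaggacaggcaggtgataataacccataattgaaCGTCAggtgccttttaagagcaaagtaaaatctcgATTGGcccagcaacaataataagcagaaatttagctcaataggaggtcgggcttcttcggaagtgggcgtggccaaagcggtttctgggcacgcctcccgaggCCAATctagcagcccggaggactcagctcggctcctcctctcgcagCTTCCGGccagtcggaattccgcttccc
Cox7b2: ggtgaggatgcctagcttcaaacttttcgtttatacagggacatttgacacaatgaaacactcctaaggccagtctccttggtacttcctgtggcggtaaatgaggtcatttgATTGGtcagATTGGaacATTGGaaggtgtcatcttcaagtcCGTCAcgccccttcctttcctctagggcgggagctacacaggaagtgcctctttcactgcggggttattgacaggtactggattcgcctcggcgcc
Cox7b: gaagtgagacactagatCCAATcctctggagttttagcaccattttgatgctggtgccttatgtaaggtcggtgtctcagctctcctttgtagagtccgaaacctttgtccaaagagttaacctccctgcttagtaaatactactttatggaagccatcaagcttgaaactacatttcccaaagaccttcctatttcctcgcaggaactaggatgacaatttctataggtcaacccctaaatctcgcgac
All 4 windows held CCAAT on one strand or the other, with 2 matches each in Cox6b2 and Cox6b1, 3 in Cox7b2 and 1 in Cox7b. The ETS core was found once, in Cox6b1, and TGACG once each in Cox6b1 and Cox7b2. The windows rest on RefSeq starts. In the GENCODE annotation used below for positions, Cox6b1 begins at chr7:30626151, so its ETS match lies within the gene there. Among the 65 of 81 nuclear subunit genes with such a window, CCGGAAG was present in 18.5% against 7.83% of all 27025 genes, GCATGCGC in 12.3% against 2.56%, CCAAT in 43.1% against 37.5% and TGACG in 33.8% against 19.8%. The full element TGACGTCA, which contains TGACG, was present in 6.15% against 1.77%. A match describes letters in the window only. No window was found for Cox8c.

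Within the mitochondrial genome, mt-Atp8 and mt-Atp6 share bases, so reads from the shared stretch cannot be told apart by sequence. Each mitochondrial gene is called an mRNA in this text, although these genes overlap on the same strand. Unlike values of mt-Atp8 and mt-Atp6 therefore need not be unlike levels of separate molecules. mt-Atp8 lies on the plus strand at chrM:7766-7969 (GRCm38), and capitals mark its 43 bases that also belong to mt-Atp6.
mt-Atp8: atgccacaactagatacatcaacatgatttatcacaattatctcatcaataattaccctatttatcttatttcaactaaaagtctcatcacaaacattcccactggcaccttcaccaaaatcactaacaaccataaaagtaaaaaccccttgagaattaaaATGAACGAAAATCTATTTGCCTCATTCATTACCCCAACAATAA
At 204 nt it is shorter than the 250 nt subtracted from a transcript in the depth estimate, so its length-normalised value is uncertain.

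Mitochondrially encoded mRNAs were several-fold more abundant than the typical nuclear subunit mRNA in each library. Values are the deposited signal, which is already scaled for the length of the transcript and the size of the library. The 12 mitochondrial mRNAs had a median of 348, 458 and 485, and none was below 129 in any library. The 81 nuclear subunit genes had medians of 47.8, 55.9 and 45.2. The ratio of these medians within a library, which a library-wide factor cannot change, was 7.29, 8.20 and 10.7. All members together held 2.64%, 3.37% and 3.31% of the summed values of the table.

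**Figure D1:**
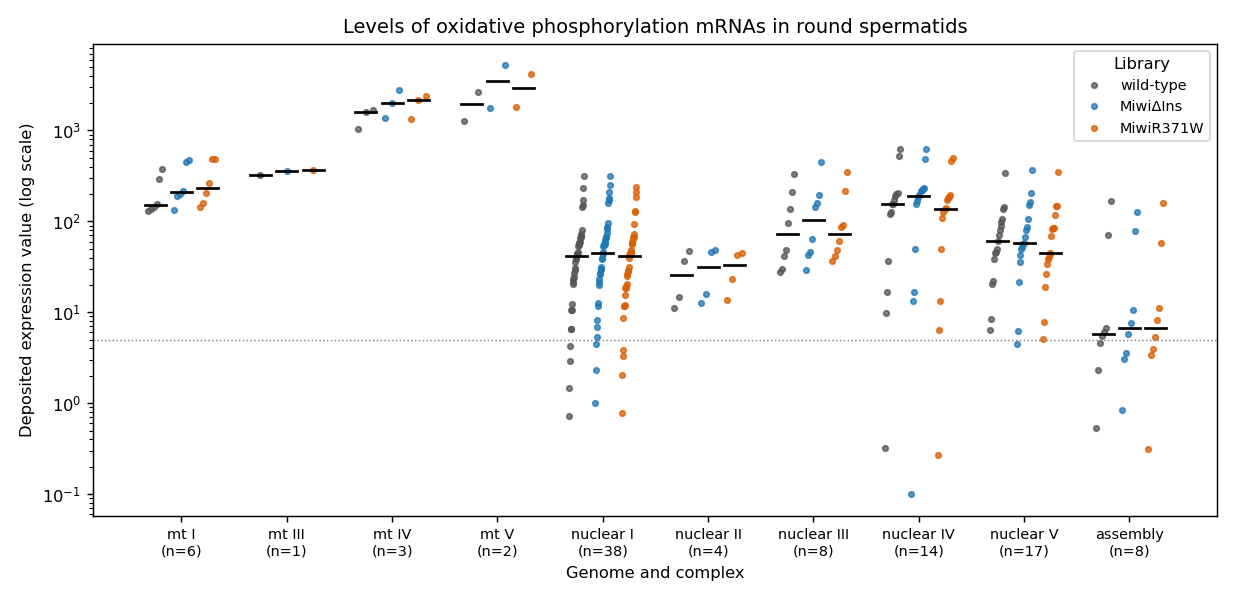
Deposited value on a log axis of each of the 101 genes (points), split by genome and complex as named on the x axis, with the 3 libraries side by side and bars at the medians; the dotted line is a value of 5. The mitochondrial mRNAs of complexes IV and V lie above 1000 in every library, and the nuclear genes spread from 0.10 to 626.

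The mitochondrial mRNAs formed an uneven set. mt-Atp8, a small subunit of the ATP synthase, had the highest value, at 2613, 5187 and 4126. It made up 26.8%, 34.3% and 29.6% of the mitochondrial sum. Core subunits of complex IV followed, mt-Co2 at 1687, 2803 and 2422 and mt-Co1 at 1583, 1993 and 2151. The mt-Atp6 mRNA, for the proton channel subunit of the ATP synthase, was at 1277, 1775 and 1796, and mt-Co3 was at 1031, 1367 and 1332. These 5 were above 1000 in every library, and the other mitochondrial mRNAs were all at or below 489.

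The complex I mRNAs were lower. mt-Nd4 was at 372, 472 and 489 and mt-Nd1 at 295, 445 and 481. mt-Nd2 was at 136, 216 and 262, and mt-Nd5 at 146, 189 and 203. Each of these 4 was lowest in wild-type and highest in MiwiR371W. mt-Nd3 was at 157, 201 and 158, so its MiwiR371W value was close to wild-type. mt-Nd6, the mRNA read from the opposite strand, was at 129, 132 and 145, and since strand-specific counting is not stated its reads cannot be told apart from those of the heavy-strand transcript. The complex III mRNA mt-Cytb was at 324, 359 and 367.

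All 12 mitochondrial mRNAs had a higher value in MiwiΔIns than in wild-type, although mt-Nd6 turned lower under each of the 4 other scalings of the libraries. Ratios are given as log2((x + 1)/(y + 1)). The median log2 ratio was 0.39 for the mitochondrial mRNAs, 0.18 for the nuclear subunits and 0.01 for all 17946 genes. Of the nuclear subunits, 58 of 81 were positive, and 48 to 52 under the other scalings. The difference between the mitochondrial and nuclear medians was 0.21. Removing the trend of the ratio with GC content and transcript length left 0.06 of it, with a mitochondrial median of 0.20 and 10 of 12 mRNAs positive.

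All 12 were also above wild-type in MiwiR371W, where mt-Nd3 turned lower with libraries scaled to equal medians or upper quartiles. The mitochondrial median was 0.46, that of the nuclear subunits −0.06 and that of all genes 0.03. Of the nuclear subunits 35 of 81 were positive, and 31 to 41 under the other scalings, with a median of 0.001 when sums without mitochondrial and the 50 most abundant genes were made equal. The difference of medians was 0.52. After removal of the same trend the difference was 0.36 and the mitochondrial median 0.335, with 11 of 12 positive. The wild-type library is shared by both comparisons, which are therefore not independent of each other.

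Between the mutants the mitochondrial median was 0.04, with 8 of 12 positive. The nuclear subunits had a median of −0.19 in MiwiR371W against MiwiΔIns, with 20 of 81 positive and 61 negative, while the median of all genes was 0.03. Scaling the libraries to equal sums moved the median of all genes to 0.11 and that of the nuclear subunits to −0.07, with 35 positive. The round spermatid markers, with a median of −0.39, were also mostly lower in this comparison, and their part in the nuclear median was not tested. The difference between the mitochondrial and nuclear medians was 0.24.

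As a share of all summed values, the mitochondrial mRNAs took 1.5%, 2.17% and 2.21%. Without mt-Atp8 the shares were 1.10%, 1.43% and 1.55%. The nuclear subunits took 1.10%, 1.16% and 1.06%. The mitochondrial sum was thus 1.37 times the nuclear subunit sum in wild-type, 1.86 times in MiwiΔIns and 2.08 times in MiwiR371W. These shares do not depend on a factor that scales a whole library.

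**Figure D2:**
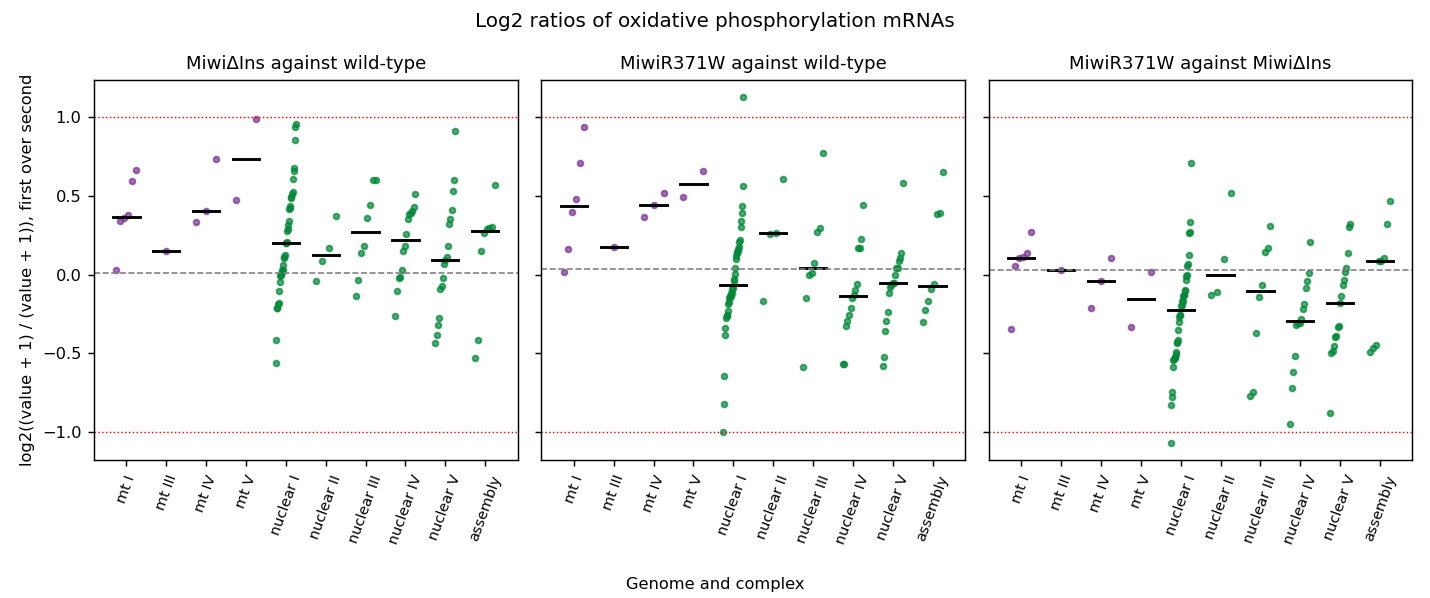
Log2 ratio of each of the 101 genes (points) by genome and complex in the 3 comparisons, with bars at the medians; purple points are mitochondrially encoded and green points nuclear, the dashed line is the median of all genes and the dotted lines mark a 2-fold ratio. All mitochondrial points lie above 0 in both comparisons with wild-type, and most nuclear points lie below 0 in MiwiR371W against MiwiΔIns.

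The ratios were not even along the mitochondrial genome. The genes nearest the start of the heavy-strand mRNAs, mt-Nd1 and mt-Nd2, had log2 ratios to wild-type of 0.59 and 0.67 in MiwiΔIns and 0.71 and 0.94 in MiwiR371W. The last heavy-strand gene, mt-Cytb, had 0.15 and 0.18. Over the 11 heavy-strand mRNAs the rank correlation (Spearman's rho) of the ratio with position was −0.59 in MiwiΔIns and −0.75 in MiwiR371W. These points share 1 transcript and 1 pair of libraries, and rho with GC content was −0.41 and −0.20, so the values are a description only. In the middle of the transcript mt-Co2 (0.73 and 0.52) and mt-Atp8 (0.99 and 0.66) lay above this order, and mt-Co1 (0.33 and 0.44) lay below it in MiwiΔIns. In MiwiR371W mt-Nd3 lay below it, at 0.015. The ribosomal RNA genes mt-Rnr1 and mt-Rnr2 precede mt-Nd1 and were left out of rho. Their log2 ratios to wild-type were 0.005 and 0.286 in MiwiΔIns, below those of mt-Nd1 and mt-Nd2. In MiwiR371W they were 0.346 and 1.001.

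**Figure D3:**
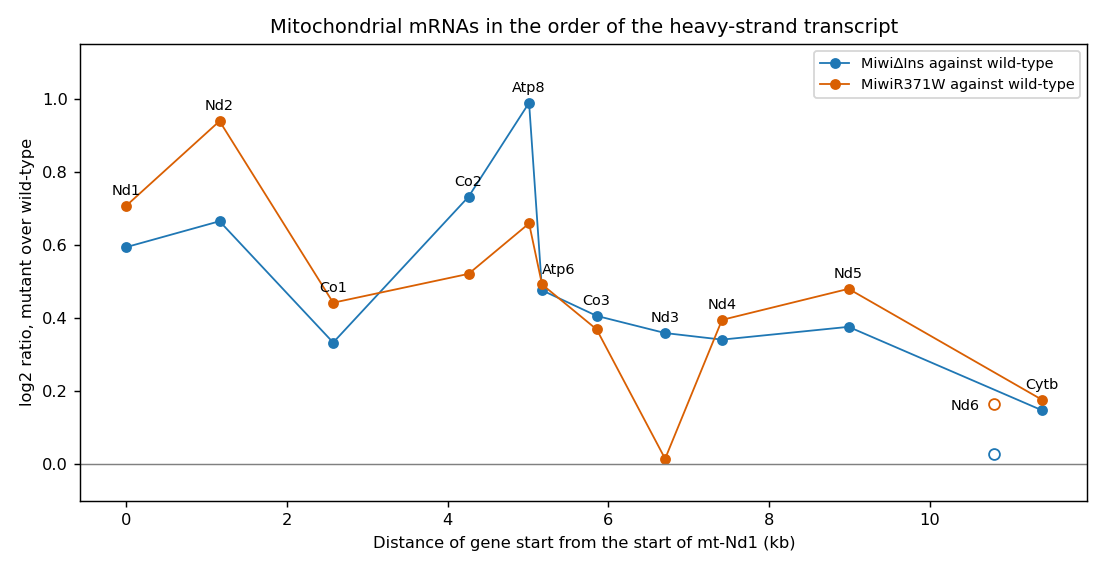
Log2 ratio of mutant over wild-type for the 12 mitochondrial mRNAs against the distance of each gene from the start of mt-Nd1 in kb; lines join the 11 heavy-strand mRNAs and open circles mark mt-Nd6 of the other strand. mt-Nd1 and mt-Nd2 lie at 0.59 to 0.94 and mt-Cytb at 0.15 and 0.18.

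Complex by complex, the nuclear subunits kept 1 order of level in every library. Complex IV had the highest median, at 155, 190 and 138. It was followed by complex III (72.4, 104 and 73.5), complex V (60.6, 57.3 and 44.6), complex I (41.8, 44.6 and 41.1) and complex II (25.9, 31.2 and 32.8). Neighbours in this order overlapped widely in the values of their genes.

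In MiwiΔIns against wild-type all 5 nuclear medians were positive, from 0.09 in complex V to 0.27 in complex III, although that of complex V became −0.01 with libraries scaled to equal sums. The mitochondrial median exceeded the nuclear one in complex I (0.37 against 0.20), complex IV (0.41 against 0.22) and complex V (0.73 against 0.09). The complex V value rests on 2 overlapping genes and was 0.48 without mt-Atp8 and 0.39 with the GC and length trend taken out. In complex III the 1 mitochondrial mRNA, mt-Cytb, had 0.15 against a nuclear median of 0.27. In MiwiR371W against wild-type the mitochondrial value was above the nuclear median in each of these 4 complexes. It was 0.44 against −0.06 in complex I, 0.18 against 0.04 in complex III, 0.44 against −0.14 in complex IV and 0.57 against −0.06 in complex V. The nuclear median of complex III turned to −0.02 with equal medians, and that of complex V to 0.001 with equal sums without mitochondrial and the 50 most abundant genes. Between the mutants the nuclear medians were −0.23, −0.10, −0.30 and −0.18 in the same order, and that of complex III turned to 0.04 with libraries scaled to equal sums. Complex II, which has no mitochondrial subunit, had nuclear medians of 0.13, 0.26 and −0.01 in the 3 comparisons, the last of which turned to 0.13 with equal sums.

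Within complex I the 7 nuclear core subunits and the 31 others had different medians. In MiwiR371W against MiwiΔIns the core median was −0.01, with 3 of 7 positive, and the median of the others −0.30, with 5 of 31 positive. In MiwiΔIns against wild-type the core median was −0.05 and that of the others 0.21. The core genes had transcript lengths of 698.5 to 977 nt, all above the 608 nt split used below. The part of length in this contrast was not tested. The accessory subunits Ndufa12 and Ndufa7 had the highest values among the nuclear genes of the complex, Ndufa12 at 313, 319 and 240 and Ndufa7 at 232, 254 and 210.

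The relation of the ratio to transcript length among the nuclear subunits differed in sign between comparisons. Across 77 subunits with a value of at least 5, rho of the log2 ratio with length was −0.18 in MiwiΔIns and 0.18 in MiwiR371W against wild-type. Over all nuclear protein-coding genes of that level these were −0.13 and 0.08. In MiwiR371W against MiwiΔIns rho was 0.40, as against 0.16 over 7815 genes. There the 39 subunits of up to 608 nt had a median of −0.37 and the 38 longer ones −0.09. Over all protein-coding genes of that level split at the same length the medians were −0.17 and 0.04. In MiwiΔIns against wild-type the short subunits had 0.26 and the long ones 0.10, and in MiwiR371W against wild-type −0.12 and −0.02. Length here is the median over all annotated transcripts of a gene and need not be that of the mRNA present. By this measure the nuclear subunits had a median of 607 nt, against 1231 nt for protein-coding nuclear genes with a value of at least 5. GC content differed between the genomes, with a median of 36.5% in mitochondrial mRNAs and 51.0% in nuclear subunits. In MiwiΔIns against wild-type, rho of the log2 ratio with GC content was −0.3 among the subunits and −0.45 over 7633 nuclear protein-coding genes. The 2 values were −0.16 and −0.19 in MiwiR371W against wild-type, and 0.17 and 0.14 in MiwiR371W against MiwiΔIns. The part of length and GC in each ratio was tested only through the trend removed above.

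To be counted as higher or lower, a member had to differ by at least 2-fold on the log2(value + 1) scale, with a higher value of at least 5. In MiwiΔIns against wild-type, 0 of 95 members with such a value were higher and 0 lower, against 1.30% and 0.760% of all genes. In MiwiR371W against wild-type, 1 of 93 was higher and 0 lower, against 1.46% and 1.85%. In MiwiR371W against MiwiΔIns, 0 of 95 were higher and 1 lower, against 1.27% and 3.21%. The median SD that counting alone gives these log2 ratios was 0.10 to 0.11, with a highest value of 0.65, and it leaves out any variation among animals, sorts and preparations.

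The gene higher in MiwiR371W was Ndufb6 (ENSMUSG00000071014.4, GRCm38 chromosome 4, 40270591 to 40279421, minus strand), an accessory subunit of the membrane arm of complex I. It had a value of 6.49, 12.6 and 15.4. Its log2 ratio of MiwiR371W to wild-type was 1.13, with a counting SD of 0.34 from about 26.9 and 51.7 fragments. It was 0.83 with a pseudocount of 5 and was not counted when the higher value had to reach 20.

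The gene lower in MiwiR371W than in MiwiΔIns was Ndufb4 (ENSMUSG00000022820.3, chromosome 16, 37647170 to 37654453, minus strand), another accessory subunit of the membrane arm. It had a value of 29.5, 39.9 and 18.5, a log2 ratio between the mutants of −1.07. Its processed pseudogene Ndufb4c, identical over 390 nt, showed the opposite order, at 17.6, 9.27 and 41.4. The sums of both, whose values are normalised to different lengths, were 47.1, 49.2 and 59.9, and the ratio between the mutants became 0.28. The division of reads between the gene and its copy is therefore uncertain, and the call was also lost with a pseudocount of 5, with either scaling to sums and after removal of the GC and length trend.

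Near-identical copies were annotated for 34 members, and for 13 the copy was in the table. Exons of 26 members overlapped a gene of the table on the opposite strand. Ndufb5, at 81.2, 158 and 93.9, had the largest nuclear log2 ratio of MiwiΔIns to wild-type, 0.96, among members with at least 10 in the higher library. It overlaps Mrpl47, a mitochondrial ribosomal protein gene on the other strand, over 616 nt, and Mrpl47 was at 39.9, 79.5 and 57.2. The complex III subunit Uqcrc2, at 27.6, 42.5 and 48.0, overlaps Pdzd9 over 504 nt, and Pdzd9 was at 145, 182 and 193. Reads of such pairs cannot be told apart without strand.

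Other nuclear members with the largest or smallest ratios in a comparison did not pass the 2-fold limit. Nor did mt-Atp8, at 0.989 in MiwiΔIns against wild-type. Ndufa3, an accessory subunit of complex I, was at 23.5, 46.0 and 26.4, highest in MiwiΔIns (log2 0.94 to wild-type). Atp5j2, subunit f of the ATP synthase, was at 22.4, 43.0 and 33.9 (0.91). Ndufab1, the mitochondrial acyl carrier protein, was at 39.9, 29.7 and 19.5, with a log2 ratio of MiwiR371W to wild-type of −1.0, just short of the limit before rounding. It passed with a pseudocount of 0.1 and with libraries scaled to equal medians or upper quartiles. Ndufab1 has the processed pseudogenes Gm4459 (99.8% identical over 468 nt) and Ndufab1-ps (99.4% over 469 nt). Neither had a value here, so the division of reads between gene and copies is uncertain. Ndufb2 was at 21.6, 21.7 and 11.8, lowest in MiwiR371W (−0.82 to wild-type). Ndufc2 was at 10.7, 6.94 and 12.0, the one of these that was lowest in MiwiΔIns (−0.56).

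Complex II, the complex with the lowest nuclear median, oxidises succinate. Its iron-sulfur subunit Sdhb was at 47.8, 46.5 and 42.5 and the flavoprotein Sdha at 37.0, 48.1 and 44.5. The membrane anchor Sdhc was at 14.9, 15.8 and 23.1, highest in MiwiR371W (0.61 to wild-type). Of complex III, Uqcrq was at 328, 446 and 345, and Uqcrc1, a core protein of the matrix side, at 213, 194 and 215. Of the ATP synthase, the catalytic beta subunit Atp5b was at 339, 366 and 349 and the stalk subunit Atp5h at 136, 207 and 146. Atp5g1, which encodes the c subunit of the rotating ring, was at 38.3, 49.3 and 26.3, a log2 ratio between the mutants of −0.88.

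The testis forms of complex IV subunits far exceeded their somatic forms in every library. Cox6b2 was at 626, 618 and 499, the highest nuclear values of the set. Cox6b1 was at 16.5, 16.9 and 13.3. The ratio of the forms was thus 37.9, 36.6 and 37.4 in the 3 libraries. Cox6b1 rested on about 23.9, 26.7 and 15.6 fragments, with counting SDs of 0.41 to 0.47 in its log2 ratios. The closeness of the 3 ratios therefore does not show that the ratio is constant. Cox8c was at 517, 480 and 467 and Cox8a at 9.93, 13.3 and 6.38, with ratios of 52.1, 36.3 and 73.2. Cox8a, whose values varied more between libraries than those of Cox8c, rested on about 35.7, 52.1 and 18.6 fragments. Cox7b2 was at 156, 222 and 183. Cox7b, which is X-linked, was at 0.32, 0.10 and 0.27, about 1 fragment or fewer, so no ratio is given.

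**Figure D4:**
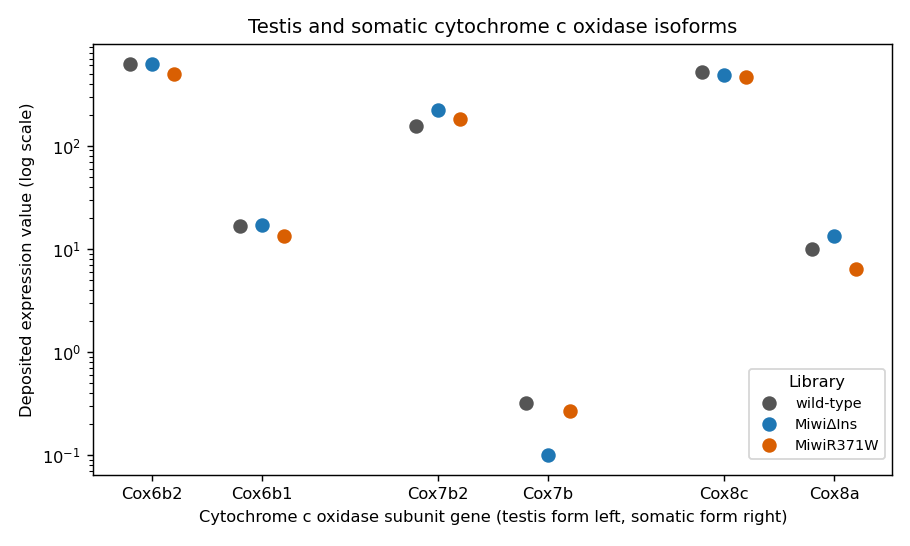
Deposited value on a log axis of 3 testis and somatic isoform pairs of complex IV in the 3 libraries (points). The testis forms lie between 156 and 626, and the somatic forms at or below 16.9.

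Of the other complex IV isoform genes, Cox4i1 was at 172, 226 and 194, Cox6a1 at 207, 230 and 139 and Cox7a2 at 126, 167 and 108. Cytochrome c, the carrier between complexes III and IV, also has a testis form. Cyct, the testis form, was at 58.2, 103 and 71.5, and the somatic Cycs at 3.92, 2.84 and 4.88. Their ratio was 14.9, 36.2 and 14.7. Cycs was below a value of 5 in every library, so this ratio is uncertain.

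The X-linked members were all low. Sex chromosomes are silenced in meiosis and remain largely repressed in round spermatids. The complex I subunits Ndufa1, at 4.30, 4.53 and 3.82, and Ndufb11, at 0.73, 1.0 and 0.78, were named after their values were seen. With Cox7b, none of the 3 X-linked subunits reached a value of 5 in any library, while 97.4% of the 78 autosomal subunits did in each. The median of 588 protein-coding genes of the X chromosome was 1.64, 1.70 and 1.85, and that of 14693 autosomal ones 4.55, 4.6 and 5.01.

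The 8 assembly factors had lower values than the subunits, with medians of 5.82, 6.73 and 6.80. Only Ndufaf3 exceeded 100, at 169, 126 and 158. Ndufaf1 was at 6.76, 10.5 and 11.2, lowest in wild-type. Ndufaf2, at 71.2, 79.0 and 57.6, was named after its values were seen. Over the 8 the median log2 ratio was 0.28 in MiwiΔIns and −0.07 in MiwiR371W against wild-type and 0.09 between the mutants. In these comparisons 6, 5 and 6 of them reached a value of 5. Of these 0 passed the 2-fold limit, where 0.760% to 3.21% of all genes were called in a direction.

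Other genes of the pathway were taken from lists by function. Genes named from these lists are those past the 2-fold limit or were chosen after their values were seen. The 76 mitochondrial ribosomal protein genes make the machinery that translates the mitochondrial mRNAs. Of these, 57 were positive in MiwiΔIns against wild-type (median 0.23), 36 in MiwiR371W against wild-type (−0.01) and 22 in MiwiR371W against MiwiΔIns (median −0.18). Counts past the 2-fold limit are over the genes that reached a value of 5. In MiwiΔIns 1 of 61 was lower than wild-type (Mrps17), against 0.760% of all genes, and in MiwiR371W 1 of 62 (Mrps28), against 1.85%. Between the mutants 2 of 60, Mrps12 and Mrpl33, were lower in MiwiR371W, a share near the 3.21% of all genes. Of 24 measured assembly factors of complexes III and IV, 14 to 16 reached a value of 5 in a comparison. Of 16 between the mutants 1 was lower, against 3.21% of all genes, and 0 passed against wild-type. It was Cmc2, at 13.7, 16.9 and 7.95 (−1.0 between the mutants). Of 10 measured assembly factors of complexes I and V without Nduf symbols, 4 or 5 reached 5, and 1 of 5 was lower in MiwiR371W than in wild-type, against 1.85% of all genes. It was Nubpl, which delivers iron-sulfur clusters to complex I, at 8.69, 3.89 and 2.82 (−1.34 in MiwiR371W against wild-type). Of the 2 ATP synthase genes with other symbols 1 was lower between the mutants, against 3.21% of all genes. Usmg5, a small membrane subunit of the ATP synthase, was at 65.2, 102 and 46.9 and lower in MiwiR371W than in MiwiΔIns (−1.11).

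Of 22 measured genes for mitochondrial transcription and mRNA upkeep, 13 or 14 reached 5 in a comparison, and 0 of these passed, where 0.760% to 3.21% of all genes were called in a direction. Their median log2 ratio was 0.03 in MiwiΔIns and 0.08 in MiwiR371W against wild-type. Tfam, which packages mitochondrial DNA and starts its transcription, was at 91.6, 152 and 120, and the mitochondrial RNA polymerase Polrmt at 9.23, 5.98 and 5.53. Of the 8 nuclear regulators of the pathway 5 reached 5, and 1 was higher between the mutants, against 1.27% of all genes. It was Esrra, at 6.27, 4.69 and 11.02 (1.08). Gabpa, which binds the ETS core, was at 10.8, 19.0 and 12.8, and Nrf1, which binds the NRF-1 core, at 12.4, 14.5 and 8.51. Gabpa overlaps the member Atp5j, at 143, 162 and 147, over 397 nt on the opposite strand. Reads of that stretch cannot be told apart without strand.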

How the data were processed

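Total RNA of sorted round spermatids was made into mRNA libraries with the VAHTS mRNA-seq V3 kit, per the labels' protocols. The authors deposited 1 table with a row per gene and a column for each of the 3 libraries. The deposited unit is a signal scaled for transcript length and library size, and whether this is FPKM or TPM is not given in the sources used here. Trim Galore 0.5.0, STAR, RSEM and mm10 (GRCm38) are named, per the submitters' processing notes, with no settings and no statement on strand. The genes and lists were chosen with earlier results of these data known.

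Ratios were log2((x + 1)/(y + 1)), and adding 1 shrinks the ratios of low genes. The size rule asked for a 2-fold difference on this scale and a value of at least 5 in the higher library, and percentages of all genes used the same rule. With 1 library per genotype no p-value was computed. Named genes were all mitochondrial mRNAs, the isoform pairs, the 2 most abundant per nuclear complex, members past the rule, and the 3 largest and 3 smallest nuclear ratios per comparison with at least 10 in the higher library. Others are said to be chosen after their values were seen. One gene named by it is left out of the text.

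GENCODE M21 (GRCm38) gave positions, lengths and GC content, matched by identifier for 98.5% of genes and all 101 members. Length and GC content were medians over all annotated transcripts of a gene, and the fragment counts use the same lengths. Near-identical copies were alignments of at least 95% identity over at least 50% of the shorter transcript (BLAST 2.17.0). Depth was estimated from the steps of low values of single-transcript genes of 2500 to 5000 nt. The step that 1 fragment was worth came to 0.077, 0.0705 and 0.0950 value × kb in wild-type, MiwiΔIns and MiwiR371W, and counting errors rest on it. The trend fit and the depth step were tested on simulated data. Alternatives were other pseudocounts and minimums, 4 scalings of the libraries, removal of a quadratic trend with GC content and log length, and other member sets. Python 3.11.15, pandas 2.3.3, numpy 2.4.6 and scipy 1.17.1 were used.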

Additional observations from a re-analysis of the deposited data

How the results depend on the processing

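No paired analysis was possible because each genotype had 1 library, and no replicate was left out. Of 432 recomputed medians and differences of medians, 17 had another sign than the reported value, 4 of them for medians of at least 0.1 in size and 13 for smaller ones. The log2 ratios of single genes lost their call 6 times. The unit of the deposited signal is not given in the sources used here, and medians of single groups depend on the scaling. Differences of medians hardly did, since only the added 1 ties them to it: as reported and under the 4 other scalings they were 0.21 and 0.52 against wild-type, and between the mutants 0.24 or 0.26. Depth limits genes below a value of about 5, and counting error covers no difference between animals or sorts.

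With libraries scaled to equal sums of values, the medians in MiwiΔIns against wild-type became 0.28 for mitochondrial mRNAs, 0.074 for nuclear subunits, 0.10 for nuclear complex I, 0.17 for III, 0.11 for IV and −0.013 for V. The mitochondrial medians of complexes I, IV and V became 0.26, 0.30 and 0.63. In MiwiR371W against MiwiΔIns the same scaling gave 0.19 for mitochondrial mRNAs, −0.074 for nuclear subunits, 0.21 for assembly factors, and −0.11, 0.13, 0.04, −0.15 and −0.043 for nuclear complexes I to V. The mitochondrial medians of complexes I, IV and V became 0.25, 0.11 and −0.011. Scaling to sums without mitochondrial mRNAs and the 50 most abundant genes gave 0.17, −0.086 and 0.20 for the first 3, −0.12, 0.12, 0.028, −0.16 and −0.055 for nuclear complexes I to V, and 0.24, 0.10 and −0.024 for the mitochondrial ones. Between the mutants, nuclear complexes II and III and mitochondrial complex IV thus turned sign under both, and over all genes the median was 0.11 and 0.10.

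Once the trend with GC content and length was removed, MiwiΔIns against wild-type gave 0.20 for mitochondrial mRNAs, 0.17 for assembly factors, a difference of medians of 0.06, and 0.19, 0.19 and 0.39 for mitochondrial complexes I, IV and V. MiwiR371W against wild-type gave 0.335 for mitochondrial mRNAs, a difference of 0.36, and 0.29 and 0.33 for mitochondrial complexes I and IV. Between the mutants nuclear complex IV became −0.16, mitochondrial complex IV 0.12 and mitochondrial complex V 0.10, which turned sign. Without mt-Atp8, mitochondrial complex V became 0.48 in MiwiΔIns against wild-type and 0.016 between the mutants, again turning sign. With complexes by known membership, an alternative chosen after seeing the data, nuclear complex V became −0.32 between the mutants. The assembly factor median became 0.14 in MiwiΔIns against wild-type with a pseudocount of 5 and turned from −0.07 to 0.15 in MiwiR371W against wild-type with members averaging under 5 left out. The cause of these moves was not tested.

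In MiwiR371W against wild-type the count of members higher went from 1 to 0 with a pseudocount of 5 (Ndufb6 at 0.83) and with a minimum of 20 (1.13). The count lower went from 0 to 1 (Ndufab1) with a pseudocount of 0.1, equal medians or equal upper quartiles. In MiwiR371W against MiwiΔIns the count lower went from 1 to 2 with a pseudocount of 0.1, which added Cox8a. It went to 0 with a pseudocount of 5 (Ndufb4 at −0.94), equal sums (−0.93), sums without mitochondrial and the 50 most abundant genes (−0.94) and the trend removed (−0.99). Over protein-coding genes without the 50 most abundant nuclear ones, the share of summed values was 1.80%, 2.64% and 2.65% for mitochondrial members in wild-type, MiwiΔIns and MiwiR371W. For all nuclear members it was 1.36%, 1.46% and 1.32%.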

Other observations

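The mitochondrial ribosomal RNAs, which are not protein-coding and were read here from an mRNA library, had values far below those of most mitochondrial mRNAs. Values are again in the order wild-type, MiwiΔIns, MiwiR371W. The small ribosomal RNA mt-Rnr1 was at 46.7, 46.8 and 59.6. The large ribosomal RNA mt-Rnr2 was at 37.2, 45.5 and 75.4. Its log2 ratio of MiwiR371W to wild-type was 1.001, just past the 2-fold limit, where 1.46% of all genes were called higher. Both genes precede mt-Nd1 on the heavy-strand transcript.

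Of 14 measured genes of the tricarboxylic acid cycle, which feeds complexes I and II, 10 reached a value of 5 and 1 passed the 2-fold limit. Fh1, the fumarase gene, was at 8.23, 19.4 and 5.94. It was higher in MiwiΔIns than in wild-type (log2 1.14) and lower in MiwiR371W than in MiwiΔIns (−1.55), where 1.30% and 3.21% of all genes were called in these directions. The median log2 ratio over the list was −0.12 in MiwiΔIns and −0.09 in MiwiR371W against wild-type. Of 13 genes of the mitochondrial membrane and import, 9 reached 5 and 0 passed in any comparison. Among them the adenine nucleotide carrier of the germ line, Slc25a31, was at 13.2, 13.5 and 12.3. The X-linked carrier Slc25a5 was at 0.79, 0.80 and 0.30, and Slc25a4, on chromosome 8, was also low, at 0.28, 0.39 and 0.35. These carriers were chosen after their values were seen. Of 16 measured genes of electron carriers and ubiquinone synthesis, 7 or 8 reached 5 and 0 passed in any comparison. Beside the lists with 0 passing, 0.760% to 3.21% of all genes were called in a direction.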
